A study of Mus musculus with 11 samples.

Results

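The 31 mouse genes of the semaphorin guidance system were looked up in genome-wide lists of Runx3 and Brn3a binding positions, among 21853 protein-coding genes in all. They were chosen by name and not by any measured value, though earlier results of these data were known. The set comprised 20 ligand genes, which are the semaphorins, and 11 receptor genes, which are 9 plexins and 2 neuropilins. Runx3 is a RUNX-family transcription factor (TF) required by proprioceptive neurons, and Brn3a, encoded by Pou4f1, is a POU-homeodomain TF of sensory neurons. Both were mapped by CUT&RUN, in which an antibody directs micrococcal nuclease to the protein it recognizes and the released DNA is sequenced. The cells were TrkC neurons of dorsal root ganglia (DRG) at E12.5, isolated by sorting for GFP from Runx3-BAC-GFP-CB6 transgenic embryos. There were 3 Runx3, 4 Brn3a and 3 H3K27Ac libraries and 1 library with normal rabbit serum, all from cells of this genotype. The GFP is driven from a bacterial artificial chromosome (BAC) of the Runx3 locus, so the sort takes cells in which that construct is active, and embryos without the transgene were not part of the series.

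The Runx3 list held 25885 peaks and the Brn3a list 32887. Each is a consensus of peaks found in at least 2 libraries of that antibody. The lists give positions without heights or values per library, so that spread between libraries could not be computed and the read depth is unknown. The table deposited for H3K27Ac repeated the Runx3 positions and was not used. RNA was not measured, so the counts below are of binding positions and not of gene activity. The cell type was checked only as far as peaks allow. Among genes of proprioceptors, the domain of Ntrk3, which encodes TrkC, held 13 Runx3-list and 24 Brn3a-list peaks, that of Isl1 11 and 22, and that of Etv1 9 and 13. Runx3 itself had 76 and 231 peaks at a locus that the transgene also carries. Among genes of glia, Sox10 had 1 and 1 and Erbb3 none. The domains, defined below, measured 1120 kb for Ntrk3, 1715 kb for Isl1 and 1961 kb for Etv1, but 77.9 kb for Sox10 and 54.8 kb for Erbb3. Divided by the mean of genes of like domain length, the counts were 2.24 and 1.98 at Ntrk3, 1.90 and 1.81 at Isl1 and 1.55 and 1.07 at Etv1. At Sox10 they were 0.822 and 0.966, so the raw counts differ in part by domain length.

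Semaphorins are secreted or membrane-bound cues that repel or attract growing axons. Class 3 semaphorins are secreted and mostly act on a receptor complex in which a neuropilin binds the ligand and a type A plexin carries the signal into the cell. Classes 4 to 7 are tethered to the membrane, by a transmembrane segment or, for Sema7a, by a lipid anchor, and bind plexins directly. Plexins act on small GTPases and so change the actin skeleton of the growth cone. In the spinal cord, Plxna1 on proprioceptive axons and the ligands Sema6c and Sema6d keep these axons out of the superficial dorsal horn. Sema3e and its receptor Plxnd1 restrict which motor neurons proprioceptive afferents contact.

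Co-bound regions, where a peak of each list shared at least 1 bp, are shown for 8 members with many peaks. The stretches can reach beyond the shared bases, so a marked word may lie in the peak of 1 list only. Words were counted over both overlapping peaks together or, where these span more than 300 bases, in at most 300 around the centre of the overlap. For each gene the stretch with most RUNX and Brn3 words is printed, and among ties the one nearest the TSS, on the plus strand of GRCm38. Ties occurred at Sema6d, Sema4d, Plxna4 and Nrp1. At Plxna2, Plxna4, Nrp1 and Sema4d the peaks span 770, 516, 433 and 456 bases, so the stretch shown is a part of them. Capitals mark the RUNX word TGTGGT or TGCGGT and the Brn3 word TTAATGA on either strand, so that a word read on the minus strand stands in reverse complement, as ACCACA for TGTGGT or TCATTAA for TTAATGA. Over all peaks, the RUNX word occurred in 44.2% of the Runx3 list and 17.5% of the Brn3a list, and the Brn3 word in 3.25% and 9.41%. The regions were picked for their words, so their word content is a description.

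The ligand regions lay in introns of Sema6d, at chr2:124615597-124615847, and Sema5a, at chr15:32433872-32434076, and 12.6 kb upstream of Sema4d, at chr13:51806204-51806503.
Sema6d: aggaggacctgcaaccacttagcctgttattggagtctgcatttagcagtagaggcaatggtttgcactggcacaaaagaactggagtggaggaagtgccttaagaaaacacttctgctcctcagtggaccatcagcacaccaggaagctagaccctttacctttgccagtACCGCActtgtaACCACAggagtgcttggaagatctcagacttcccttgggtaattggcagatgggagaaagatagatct
Sema4d: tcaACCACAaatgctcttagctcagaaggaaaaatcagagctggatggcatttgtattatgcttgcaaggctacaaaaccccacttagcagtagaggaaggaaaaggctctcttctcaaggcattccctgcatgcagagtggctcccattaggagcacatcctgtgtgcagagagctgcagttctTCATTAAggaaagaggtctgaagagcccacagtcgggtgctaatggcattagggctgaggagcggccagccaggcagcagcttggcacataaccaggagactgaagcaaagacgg
Sema5a: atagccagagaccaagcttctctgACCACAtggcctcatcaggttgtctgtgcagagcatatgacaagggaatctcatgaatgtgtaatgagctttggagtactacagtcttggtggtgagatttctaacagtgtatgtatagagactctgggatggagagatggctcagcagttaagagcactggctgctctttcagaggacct

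The receptor regions were intergenic, except that of Nrp2, which lay within Pard3b. They were found at chr1:193968293-193968592 (Plxna2), chr1:61962656-61962902 (Nrp2), chr6:32706501-32706800 (Plxna4), chr8:128107149-128107448 (Nrp1) and chr6:88996693-88996914 (Plxna1).
Plxna2: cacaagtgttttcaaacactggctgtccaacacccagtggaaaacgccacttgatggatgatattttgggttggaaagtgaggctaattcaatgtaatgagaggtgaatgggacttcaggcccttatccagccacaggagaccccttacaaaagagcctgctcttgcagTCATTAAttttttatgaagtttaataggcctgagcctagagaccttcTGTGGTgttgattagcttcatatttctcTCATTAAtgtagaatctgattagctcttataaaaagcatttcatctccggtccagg
Nrp2: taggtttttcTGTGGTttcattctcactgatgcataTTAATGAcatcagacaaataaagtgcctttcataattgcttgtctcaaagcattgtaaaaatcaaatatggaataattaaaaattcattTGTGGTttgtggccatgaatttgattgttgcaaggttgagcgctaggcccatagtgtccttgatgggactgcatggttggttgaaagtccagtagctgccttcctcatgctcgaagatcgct
Plxna4: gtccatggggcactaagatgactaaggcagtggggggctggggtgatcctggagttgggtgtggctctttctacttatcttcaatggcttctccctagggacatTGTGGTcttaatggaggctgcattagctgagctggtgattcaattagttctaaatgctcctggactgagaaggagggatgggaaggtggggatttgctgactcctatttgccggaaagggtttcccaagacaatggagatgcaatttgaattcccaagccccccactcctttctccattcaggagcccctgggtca
Nrp1: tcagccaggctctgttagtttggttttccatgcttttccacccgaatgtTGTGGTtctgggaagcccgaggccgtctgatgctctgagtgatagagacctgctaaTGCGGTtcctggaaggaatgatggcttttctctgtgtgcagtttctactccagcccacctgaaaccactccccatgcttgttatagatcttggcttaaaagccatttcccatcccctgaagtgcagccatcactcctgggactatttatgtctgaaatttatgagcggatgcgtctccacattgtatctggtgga
Plxna1: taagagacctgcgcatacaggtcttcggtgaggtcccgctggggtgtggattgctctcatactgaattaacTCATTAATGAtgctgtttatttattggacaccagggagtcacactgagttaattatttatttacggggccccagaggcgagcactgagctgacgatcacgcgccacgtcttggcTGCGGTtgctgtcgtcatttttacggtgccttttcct

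The Plxna2, Nrp2, Plxna1 and Sema4d regions held both kinds of word. In the Plxna1 region 2 Brn3 words on opposite strands shared bases, and in the Nrp2 region a Brn3 word stood between 2 RUNX words. The Brn3 words of the Plxna1 stretch lay outside its Runx3-list peak. The RUNX words of Sema6d lay outside its Brn3a-list peak, and that of Sema4d began before its Brn3a-list peak. The stretches shown for Sema6d, Sema5a, Plxna4 and Nrp1 held RUNX words only. Over the full 433 bases the Nrp1 region also held 1 Brn3 word, and another Plxna4 region held 2 RUNX words and 1 Brn3 word over its 639 bases. Counted within the Runx3-list peak alone, which leaves out the Plxna1 region, 6 of 62 co-bound peaks in member domains (9.68%) held both words. Over all co-bound Runx3-list peaks it was 256 of 8453 (3.03%). The sets differ in promoter content, since 56 of the 62 but 5736 of the 8453 lay beyond 1 kb of any coding TSS. The Brn3 word was in 0.822% of all Runx3-list promoter peaks and 4.44% of the others. The part of promoter content in the difference was not tested.

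The first comparison asked which members were bound at their promoters, taken as 1 kb to either side of each transcription start site (TSS) of its coding transcripts. A Runx3-list peak was found at the promoters of 12 of 31 members (38.7%), beside 36.2% of all protein-coding genes, so the members were close to the background. A Brn3a-list peak was found at 13 of 31 (41.9%), beside 20.7% of all genes. Peaks of both lists were found at 8 members (25.8%), beside 14.8% of all genes. By role, Runx3-list promoter peaks were found at 6 of 20 ligands (30.0%) and 6 of 11 receptors (54.5%). For Brn3a these were 8 of 20 ligands (40.0%) and 5 of 11 receptors (45.5%). With the 5′-most TSS alone the members numbered 10 for Runx3, beside 33.4% of all genes, and 12 for Brn3a, beside 18%.

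Both factors were at promoters of the ligands Sema3c, Sema4b, Sema6b and Sema6d and of the receptors Plxna1, Plxna2, Plxnb2 and Nrp2. In 6 of these the peaks overlapped. At Plxna2, a type A plexin that binds class 6 semaphorins, the centres lay 31 bp upstream (Runx3) and 3 bp downstream (Brn3a) of the only annotated TSS. At Nrp2, the neuropilin that prefers Sema3f, both lay just downstream of the TSS, at 82 and 100 bp. At Sema4b, a transmembrane semaphorin, they lay at 372 and 300 bp, and at Sema6b, a ligand of Plxna4, they lay 351 and 403 bp upstream. At Sema3c, a secreted semaphorin, the overlapping peaks lay at 274 and 321 bp, with another Brn3a-list peak 54 bp upstream. At Sema6d the overlap was at an internal promoter 520 kb downstream of the 5′-most TSS. At Plxna1 and at Plxnb2, a type B plexin for class 4 semaphorins, the peaks of the lists were separate. Those of Plxna1 lay at 49 bp (Runx3) and 334 bp (Brn3a), and those of Plxnb2 lay 110 bp upstream and 185 bp downstream.

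**Figure D1:**
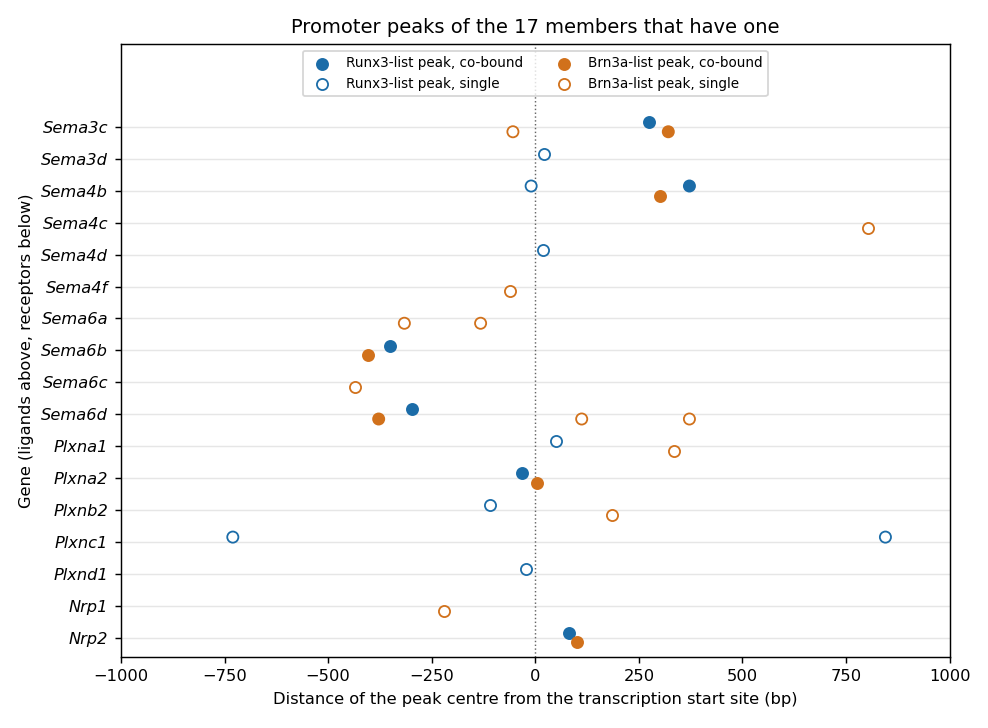
Promoter peaks of the 17 members that have one. Each point is the centre of a Runx3-list (blue, upper) or Brn3a-list (orange, lower) peak by its distance in bp from the 5′-most TSS, or from the nearest other TSS of the gene where the 5′-most lies beyond 1 kb, with filled points co-bound. All 4 class 6 semaphorins carry a Brn3a-list peak, in Sema6d at internal starts only. In Plxna1 and Plxnb2 the peaks of the lists do not overlap.

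Runx3 alone was found at 4 members, namely Sema3d, a secreted ligand, Sema4d, a ligand of type B plexins, Plxnc1, the receptor of Sema7a, and Plxnd1, the receptor of Sema3e. Brn3a alone was found at 5 members, namely Sema4c, Sema4f, Sema6a, Sema6c and Nrp1, the neuropilin that binds Sema3a. All 4 class 6 semaphorins thus carried a Brn3a-list peak at a promoter, as did 1 of 7 class 3 semaphorins. Those of Sema6d were at internal starts only. Class 6 genes had a median of 4.5 coding TSSs, beside 2 in class 3 and 2 over all genes, and so more promoter windows. The Sema4d peak was at an internal TSS 59.0 kb into the gene. The other 14 members, 10 ligands and 4 receptors, had no promoter peak of either list. Narrow peaks made up most of these promoter calls. When peaks narrower than the median of their list were left out, 4 members kept a Runx3-list promoter peak, beside 23.8% of all genes, and 5 a Brn3a-list peak, beside 11.9%.

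The next comparison took in distal peaks. Each gene was given a regulatory domain of 5 kb upstream to 1 kb downstream of its 5′-most TSS, extended to the windows of the neighbouring genes and by at most 1 Mb. Long domains hold more peaks by length alone, and receptors had longer domains. The median domain measured 148 kb for ligands, 633 kb for receptors and 90.5 kb for all genes. Each count was therefore set beside the mean of genes of like domain length, from 20 bins of 1092 or 1093 genes. The member domains held 173 different Runx3-list and 261 different Brn3a-list peaks. Most of these could also be counted for another gene. The domain of a further gene held 86.1% of them in the Runx3 list and 85.8% in the Brn3a list, and a member had the nearest TSS for 61.3% and 60.5%.

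**Figure D2:**
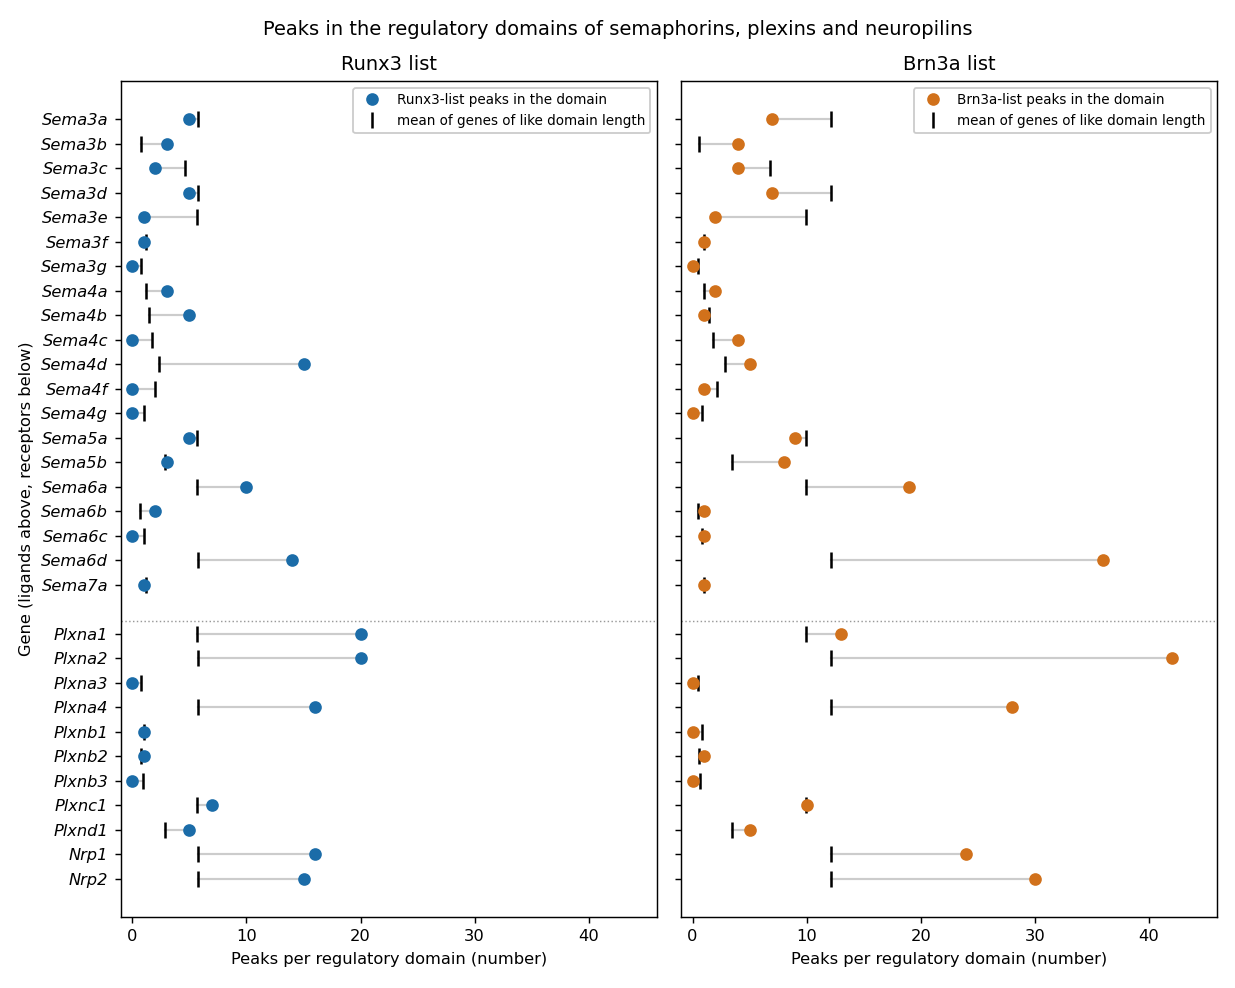
Number of Runx3-list (left) and Brn3a-list (right) peaks in the regulatory domain of each member. Points are the counts, black ticks the mean of genes of like domain length, and grey lines the difference; ligands stand above the dotted line and receptors below it. Plxna2 with 42 Brn3a-list peaks lies farthest to the right, and Sema3g, Sema4g, Plxna3 and Plxnb3 lie at 0 in both panels.

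Among the receptors, 5 genes held most of the peaks, 87 of 101 Runx3-list and 137 of 153 Brn3a-list counts. Plxna2 had 20 peaks of the Runx3 list and 42 of the Brn3a list in a domain of 1314 kb, where genes of like length had means of 5.79 and 12.1. Of its peaks, 14 of 20 and 34 of 42 lay upstream in intergenic DNA, with the farthest 958 and 992 kb from its TSS. Nrp2 had 15 and 30 peaks in 1410 kb, against the same means. Many of them lay inside the neighbouring gene Pard3b, with 6 Runx3-list and 15 Brn3a-list peaks. Plxna4, which transmits signals of Sema3a and of class 6 semaphorins, had 16 and 28 peaks in 1008 kb, of which 9 and 11 lay in its own introns. A further 2 Runx3-list and 12 Brn3a-list peaks of this domain lay in Chchd3.

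Nrp1 had 16 and 24 peaks in 1321 kb, 13 and 15 of them intergenic. Plxna1 differed from these in its balance. It had 20 Runx3-list but 13 Brn3a-list peaks in 691 kb, where the means of like genes were 5.66 and 9.92. Only 1 Runx3-list and 2 Brn3a-list peaks lay in its own introns, and 13 and 7 were intergenic, most of them downstream of the gene. With each peak given to the nearest TSS alone, Plxna1 kept 5 Runx3-list and 4 Brn3a-list peaks. The remaining receptors had few. Plxnc1 had 7 and 10 peaks, Plxnd1 5 and 5, Plxnb2 1 and 1, and Plxnb1, the receptor of Sema4d, 1 and 0. Plxna3 and Plxnb3, both on the X chromosome, had none in domains of 38.6 and 48.2 kb.

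Among the ligands, Sema6d, a transmembrane ligand of Plxna1, had the most peaks of the lists together, with 14 Runx3-list and 36 Brn3a-list peaks in 1973 kb against means of 5.79 and 12.1. Of these, 10 Runx3-list and 18 Brn3a-list peaks lay more than 500 kb downstream of the 5′-most TSS, around the internal promoters and beyond the gene. With the nearest TSS alone, Sema6d kept 2 and 15. That setting takes the distance from the 5′-most TSS of each gene, so peaks beside the internal starts of Sema6d went to Slc24a5. Peaks beyond the end of the gene also went to Slc24a5, and the farthest upstream ones went to Sqor. Sema6a, a ligand of Plxna2 and Plxna4, had 10 and 19 peaks in 927 kb, against means of 5.66 and 9.92. Sema4d showed the reverse balance. Its 189 kb held 15 Runx3-list and 5 Brn3a-list peaks, against means of 2.35 and 2.87, and 99.3% of genes of like domain length had fewer Runx3-list peaks. All 15 lay within 100 kb of the TSS, 8 of them in introns. Sema5a, a semaphorin with thrombospondin repeats, had 5 and 9 peaks in 737 kb, near the means of 5.66 and 9.92, and all 9 Brn3a-list peaks were in its introns.

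Sema3a and Sema3d, secreted semaphorins that neighbour each other on chromosome 5, had 5 and 7 peaks each, against means of 5.79 and 12.1. They share 3 of the Runx3-list and 5 of the Brn3a-list peaks, including the co-bound region between them, so they are not separate observations. Sema3e had 1 and 2 peaks in 717 kb, where genes of like length averaged 5.66 and 9.92, and Sema3c had 2 and 4 in 411 kb, against 4.61 and 6.80. Sema3b, in a short domain of 45.7 kb, had 3 and 4, against means of 0.778 and 0.592. The 3 Runx3-list peaks of Sema3b lay upstream of it, and 2 were at a promoter of Gnai2. Sema5b had 3 and 8 peaks, Sema4a 3 and 2, Sema4b 5 and 1, Sema6b 2 and 1, and Sema4c 0 and 4. Sema3f and Sema7a had 1 of each list, and Sema4f and Sema6c had 0 and 1. Sema3g and Sema4g had no peak, and with Plxna3 and Plxnb3 they made 4 members without any (12.9%), beside 27.1% of all genes. By their domain lengths 6.53 such members would be counted.

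**Figure D3:**
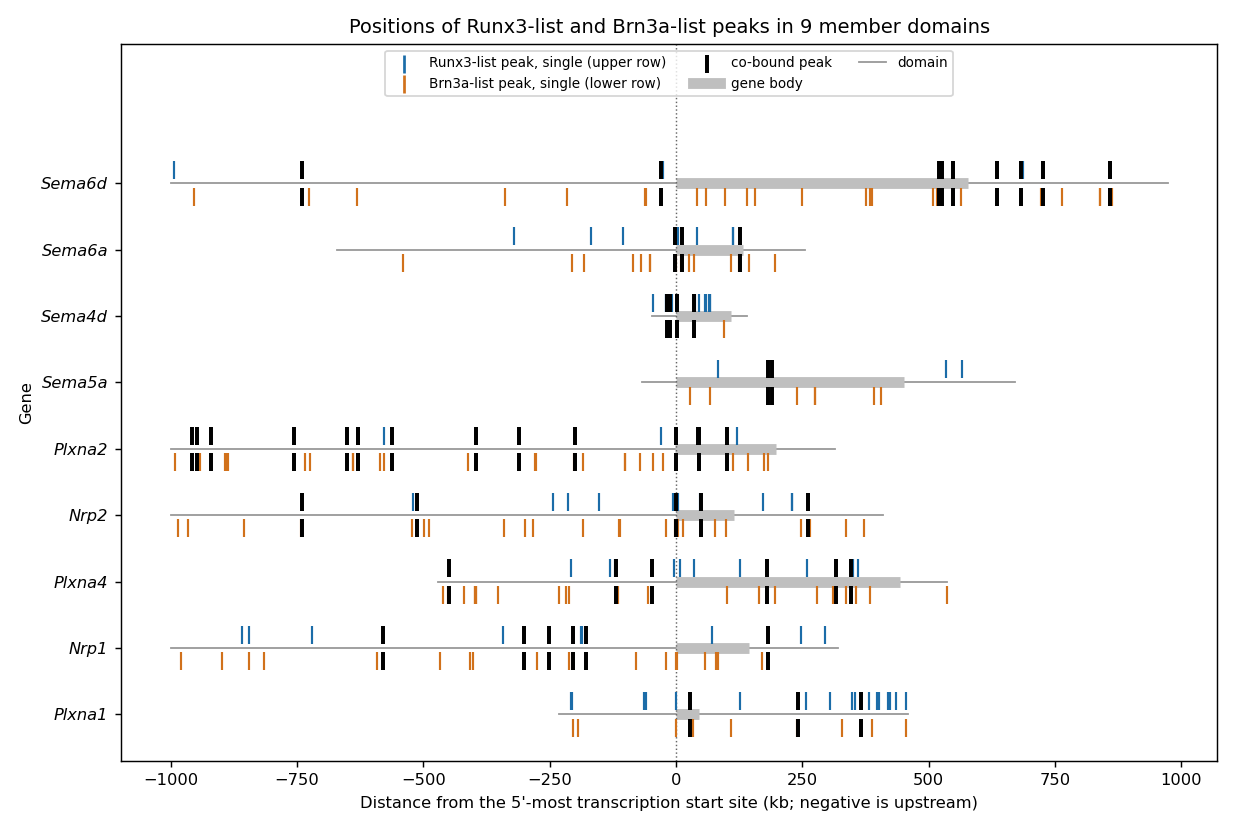
Positions of peaks in the domains of 4 ligands (upper rows) and 5 receptors (lower rows), in kb from the 5′-most TSS with upstream to the left. Blue (Runx3 list, upper marks) and orange (Brn3a list, lower marks) are single peaks and black marks co-bound ones, the thick grey bar is the gene body and the thin line the domain. At Plxna2 peaks spread over the intergenic DNA upstream, at Sema6d they gather beyond 500 kb downstream, and at Sema4d they lie within 100 kb of the TSS.

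Ligands and receptors were then compared as classes. Ligand genes had a median of 2.5 Runx3-list peaks, receptors 7 and all genes 1. For Brn3a the medians were 3, 10 and 1. Relative to genes of like domain length, the median ratio for Runx3 was 0.863 in ligands, 1.73 in receptors and 0.693 over all genes, and for Brn3a it was 0.966, 1.46 and 0.504. The all-gene medians mix all domain lengths and are not matched to the longer domains of receptors. In the bin of 559 to 1001 kb, 5 Runx3-list peaks make a ratio of 0.883, and 50.0% of genes had fewer. For Brn3a, 9 peaks make a ratio of 0.907 there, and 52.0% had fewer. Counts above the mean of like genes were found for Runx3 in 8 of 20 ligands (40.0%) and 8 of 11 receptors (72.7%), beside 41.2% of all genes. For Brn3a they were found in 9 of 20 ligands (45%) and 8 of 11 receptors (72.7%), beside 37.3% of all genes. By these counts the receptors were above the background in both lists, while the ligands were nearer to it. No test was made of this difference, since genes are not replicates and the members were chosen with earlier results known.

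The top 10% of genes of like length took in 3 ligands (Sema3b, Sema4b and Sema4d) and 5 receptors (Plxna1, Plxna2, Plxna4, Nrp1 and Nrp2) for Runx3, beside 7.1% of all genes. For Brn3a it took in 2 ligands (Sema3b and Sema6d) and 3 receptors (Plxna2, Plxna4 and Nrp2), beside 7.47%. Both all-gene shares mix all domain lengths. Summed over a class and divided by the sum of the means, Runx3-list peaks were 1.31 in ligands and 2.47 in receptors, and Brn3a-list peaks 1.24 and 2.05. The ligand sums rested on few genes. Without Sema4d and Sema6d the Runx3 value for ligands was 0.934, and without Sema6d and Sema6a the Brn3a value was 0.840. Without the 2 receptors with most peaks, Plxna1 and Plxna2 for Runx3 and Plxna2 and Nrp2 for Brn3a, receptors kept 2.08 and 1.61. With domains extended by at most 100 kb, these summed values were 1.38 in ligands and 1.64 in receptors for Runx3, and 1.52 and 1.63 for Brn3a. Nrp1 then had 1 Runx3-list peak against a mean of 2.21, and Plxna4 had 2 Brn3a-list peaks against 3.23. The other receptors of each top 10% stayed above their means. The median ratios kept their gap at that limit, with ligands minus receptors at -0.987 for Runx3, against -0.869 in the standard domains, and at -0.491 for Brn3a in both. With the nearest TSS alone, the median ratio for Brn3a was higher in ligands than in receptors, by 0.117, while the summed value was 1.36 in ligands and 1.84 in receptors.

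**Figure D4:**
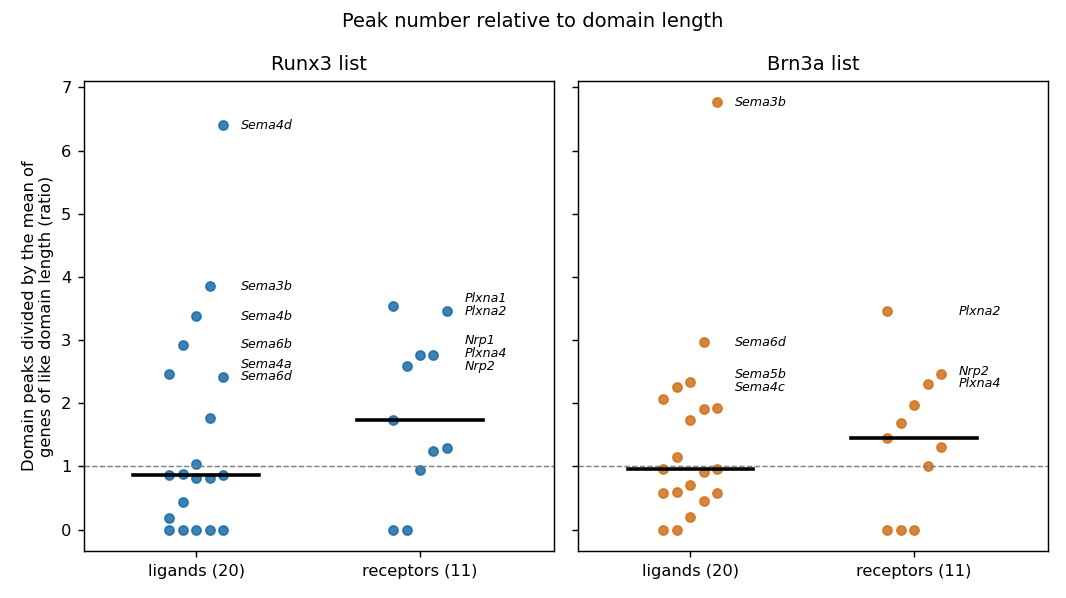
Peaks in each domain divided by the mean of genes of like domain length, for 20 ligands (left in each panel) and 11 receptors (right), for the Runx3 and Brn3a lists. Points are genes, black bars medians and the dashed line a ratio of 1; names are given above 2.2. Medians are 0.863 and 1.73 for Runx3 and 0.966 and 1.46 for Brn3a, and both classes include genes at 0.

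Within the classes the subfamilies differed. Type A plexins summed to 3.11 times the like-length mean for Runx3 and 2.39 times for Brn3a, and the neuropilins to 2.68 and 2.22 times. Type B plexins summed to 0.732 and 0.464 times, from 2 and 1 peaks. Among the ligands, class 3 semaphorins summed to 0.692 and 0.579 times. Only Sema3b of these 7 exceeded its mean. Classes 4 to 7 summed to 1.77 and 1.83 times, and class 6 alone to 1.97 and 2.43 times. These sums come from 2 to 13 genes each.

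Co-binding was compared next. A co-bound region was found in the domains of 16 of 31 members (51.6%), 10 of 20 ligands and 6 of 11 receptors, beside 31.9% of all genes. By their domain lengths 13.5 members would be counted, 8.18 ligands and 5.29 receptors, so that the number of members with such a region was close to that of like genes. The number of regions was less even. Co-bound Runx3-list peaks summed to 1.32 times the like-length mean in ligands and 2.27 times in receptors. Plxna2 had 15, against a mean of 2.46 for genes of like length, and Sema6d had 11. Plxna4 and Nrp1 had 6 each, Nrp2 had 5, Sema4d had 4, against a mean of 0.725, and Plxna1 and Sema6a had 3 each. At Plxna2, 15 of 20 Runx3-list peaks were co-bound, and at Plxna1 3 of 20. At 17 members the Brn3a list had more peaks than the Runx3 list, and at 6 members (Sema4a, Sema4b, Sema4d, Sema6b, Plxna1 and Plxnb1) it had fewer. Over all 21853 genes it had more at 7100 and fewer at 6092, and the Brn3a list is the longer one. These counts are not matched for domain length. Genes of like length also averaged more Runx3-list than Brn3a-list peaks at Sema6b (0.684 and 0.484) and Plxnb1 (1.06 and 0.870). The same held at Sema4a (1.22 and 1.04) and Sema4b (1.48 and 1.43), but not at Sema4d and Plxna1.

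As a share of peaks, co-binding in member domains did not stand apart from the rest of the genome. Of the Runx3-list peaks 62 of 173 were co-bound (35.8%, Wilson 95% interval 29.1% to 43.2%), beside 32.7% of all peaks. Of the Brn3a-list peaks 62 of 261 were co-bound (23.8%, 19% to 29.3%), beside 25.6%. Among distal peaks alone, the share was 36.4% (29.2% to 44.2%) beside 33.0% for Runx3. For Brn3a it was 23.1% (18.3% to 28.8%) beside 20.2%. Ligand and receptor domains gave like shares, 36.1% and 35.6% for Runx3 and 24.1% and 23.5% for Brn3a. At the members' own promoters 6 of 14 Runx3-list peaks were co-bound (42.9%, 21.4% to 67.4%), beside 31.9% of all Runx3-list peaks at promoters. Of the Brn3a-list peaks there 6 of 17 were co-bound (35.3%, 17.3% to 58.7%), beside 58.0%. The intervals cover the counting of peaks only, and peaks near one gene are not independent of each other.

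The motif content was read from the columns deposited with the peaks. The Runx3 table counts RUNX binding sites (RBS), which are the RUNX words above or the same words ending in C, and the Brn3a table marks a Brn-family motif. Distal peaks, those beyond 1 kb of any protein-coding TSS, were compared with distal peaks of the whole genome, because promoter peaks hold fewer motifs. Of the members' distal Runx3-list peaks, 115 of 154 held an RBS (74.7%, 67.3% to 80.9%), beside 65.3% of all distal peaks. The shares were 75.4% in ligand and 74.2% in receptor domains. Of their distal Brn3a-list peaks, 162 of 242 held the Brn-family motif (66.9%, 60.8% to 72.6%), beside 60.1%. Here too ligand and receptor domains were alike, at 67.7% and 66.4%. The Brn3 word TTAATGA was found in 12 of 154 distal Runx3-list peaks (7.79%, 4.51% to 13.1%), beside 4.44%. It was in 3 of 61 in ligand domains (4.92%, 1.69% to 13.5%) and 9 of 93 in receptor domains (9.68%, 5.18% to 17.4%), with overlapping intervals. In the distal Brn3a-list peaks it was found in 37 of 242 (15.3%, 11.3% to 20.4%), beside 10.6%.

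At the members' own promoters the motifs were rarer. An RBS stood in 7 of 14 Runx3-list peaks (50.0%, 26.8% to 73.2%), beside 53.1% of all promoter peaks. The Brn-family motif stood in 3 of 17 Brn3a-list peaks (17.6%, 6.19% to 41.0%), beside 18.8%. The Brn3 word was in none of the 14 and none of the 17, beside 0.822% and 2.51% of all promoter peaks. Of the promoters where the peaks of the lists overlapped, those of Sema3c, Plxna2 and Nrp2 held neither an RBS in the Runx3-list peak nor a Brn-family motif in the Brn3a-list peak. At single genes the share of distal and promoter peaks with an RBS was 17 of 20 at Plxna1, 12 of 15 at Sema4d, 14 of 16 at Plxna4 and 11 of 20 at Plxna2.

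**Figure D5:**
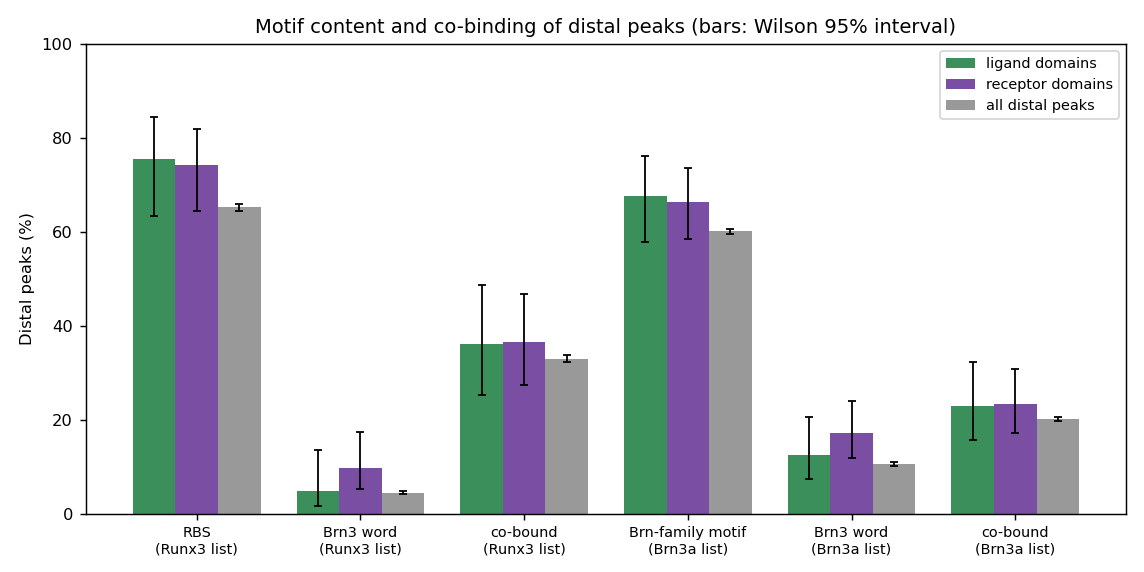
Share of distal peaks (%) with an RBS, a Brn3 word, a Brn-family motif or an overlap with the other list, in ligand domains (green), receptor domains (purple) and the whole genome (grey). Error bars are Wilson 95% intervals and cover counting only; an RBS was present in 75.4%, 74.2% and 65.3% of Runx3-list peaks, and the intervals of ligands and receptors overlap in every pair.

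By position, 19 of the 173 Runx3-list peaks (11%) and 19 of the 261 Brn3a-list peaks (7.28%) lay at a promoter of any protein-coding gene, beside 32.9% and 14.3% of all peaks. Domains stop at the windows around the 5′-most TSS of neighbouring genes, so most promoters of other genes were left out of them by construction. The promoter shares of member domains and of all peaks are therefore not like for like. The own promoter held 14 of 173 Runx3-list peaks (8.09%) and 17 of 261 Brn3a-list peaks (6.51%). Introns of the member held 30.1% and 30.3%, intergenic DNA 47.4% and 41.0%, and other genes outside promoters 11.6% and 19.9%. Coding exons held no Runx3-list and 3 Brn3a-list peaks. Peaks of ligands lay nearer to the gene than those of receptors. Within 100 kb of the TSS were 56.9% of ligand and 29.7% of receptor peaks for Runx3, and 49.1% and 24.8% for Brn3a. Ligand domains are shorter, and the part of domain length in this difference was not tested. Introns held 36.1% of Runx3-list peaks in ligand domains and 25.7% in receptor domains, and for Brn3a 40.7% and 22.9%. The peaks had median widths of 175 bp for Runx3, beside 176 bp over all peaks, and 171 bp for Brn3a, beside 171 bp.

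Other genes of semaphorin signalling were looked up in the same way, from a list of 37 drawn up from general knowledge, all of which were matched. They include cytoplasmic partners of plexins such as the Mical oxidases, collapsin response mediators (Crmp1 and the Dpysl genes), kinases and adhesion molecules that join neuropilin complexes. These partners were bound at promoters by Runx3 more than by Brn3a, with 22 of 37 (59.5%) and 8 of 37 (21.6%). The 31 members had 38.7% and 41.9%. All genes went the same way as the partners, with the 36.2% and 20.7% given above. The Brn3a share of the partners was thus close to the background, while their Runx3 share was above it. The median ratios of the partners to genes of like domain length were 1.46 for Runx3 and 1.11 for Brn3a, beside 0.693 and 0.504 over all genes of any domain length. Counts above the mean of like genes were found for Runx3 in 26 (70.3%) and for Brn3a in 21 (56.8%) of the 37, beside 41.2% and 37.3% of all genes. Cntn2, an adhesion molecule of the contactin family, had most Runx3-list peaks, with 13, followed by Crmp1 and Fyn with 11 each. Fyn, a Src-family kinase, had most Brn3a-list peaks, with 17, followed by Chl1, an L1-family adhesion molecule, with 16, and Gsk3b, a kinase downstream of Sema3a, with 13.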

How the data were processed

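CUT&RUN peaks were analysed as deposited. Per the labels, the authors trimmed reads with cutadapt, aligned them with Bowtie to mm10 (GRCm38) and called peaks with MACS2. Their versions, the calling settings and the role of the serum control are not given in the sources used here. Consensus lists were deposited by the authors, with values other than read counts, namely positions in bp, the number of RBS per Runx3-list peak and the presence of a Brn-family motif per Brn3a-list peak. Replicates were pooled and depth is unknown, so intervals cover counting error only and p-values were not computed. Starts were read as 1-based, with which the RBS column equalled the word count in 25883 of 25883 nuclear peaks, and 2 mitochondrial Runx3-list peaks were left out.

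Positions were joined with the GENCODE vM21 protein-coding annotation and the RefSeq GRCm38 genome in Python 3.11.15, numpy 2.4.6 and pandas 2.3.3, with plots from matplotlib 3.10.9. A peak was placed by its centre, and peaks sharing at least 1 bp were co-bound. Counting was tested on simulated data. The members, lists and comparisons were chosen with earlier results of these data known. All 31 members are accounted for, with full values for the 5 receptors and 6 ligands with most peaks, members with promoter peaks of both lists and members without peaks, and for partners the 3 with most peaks of each list. One co-bound sequence was printed per named gene, up to 8. Regions that overlap an untranslated region or lie on chromosome 18 were left out, so none is shown for Sema6a. Alternatives changed the promoter window, TSS, domain limit, assignment, peak width, overlap and length bins. Some genes of the glial marker list are not reported here.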

Additional observations from a re-analysis of the deposited data

How the results depend on the processing

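Leaving out single libraries was not possible because the lists pool them. With wider peaks only (at least the list's median width), promoters with a peak numbered 4 (Runx3), 5 (Brn3a) and 1 (both), and domain peaks numbered 87 and 133. With domains extended by at most 100 kb these numbered 72 and 91, and with the nearest TSS alone 108 and 158, where the standard domains gave 176 and 266 counted per gene. These settings count fewer peaks by construction. With the 100 kb limit the summed ratio for Runx3 in receptors was 1.64, and the summed ratio of ligands minus receptors was -0.258 for Runx3 and -0.118 for Brn3a, against -1.17 and -0.813, while the median ratios differed by -0.987 and -0.491, against -0.869 and -0.491. With the nearest TSS alone, the median ratio of ligands minus that of receptors was -1.39 for Runx3, and for Brn3a it was 0.117 against -0.491, a reversal that the summed ratio did not show (-0.483). The cause was not tested. With the TSS of the longest coding transcript this Brn3a difference was -0.293. Promoter windows of 500 or 2500 bp, the 5′-most TSS, the TSS of the longest coding transcript for the other values, 100 length bins, leaving out the 1 or 2 genes of a class with most peaks (both chosen after seeing the data), other overlap rules and word windows of 200 bp kept counts within 1.5 times, ratios within 1.5 times and shares within their intervals. Depth is unknown, and positions alone cannot show how strongly a region was bound.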
